A study of Homo sapiens with 4 samples.

Results

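The genes described here encode the protein parts of the mitochondrial ribosome, also called the mitoribosome. They were taken as the protein-coding genes whose symbol is MRPL or MRPS followed by a number, after the Ensembl identifiers of the count table were matched to symbols in release 44 of the GENCODE annotation (hg38). The rule found 78 of the 64252 genes in the table. By symbol, 49 belong to the large subunit (MRPL) and 29 to the small subunit (MRPS). All 78 passed the filter on low counts, which left 17971 genes to test, and the lowest count of any of them in any library was 271.

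The study treated NB4 cells, an established line from acute promyelocytic leukemia, with dBET1 or with its solvent DMSO. dBET1 is a proteolysis-targeting chimera: one end binds bromodomain proteins of the BET family, and the other recruits the E3 ligase adaptor cereblon, so that the bound proteins are marked for degradation. The 2 dBET1 libraries came from NB4 cells given 8 μM dBET1 for 24 h, and the 2 DMSO libraries from NB4 cells given the same volume of DMSO for 24 h. The labels do not say whether replicates were separate cultures, so p-values measure only the spread between these libraries, which may be technical.

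The libraries held 28019956 to 34685645 counts. Of 9 genes of promyelocytes and their granules, ELANE and CTSG were at 0 in every library. MPO was at 0 in both DMSO libraries and at 22 and 10 counts in the dBET1 libraries. The whole list summed to 916 to 1038 counts with DMSO and to 751 to 776 with dBET1. Most of these came from LYZ (600 and 489 with DMSO, 323 and 345 with dBET1) and CD33 (323 and 335 with DMSO, 331 and 323 with dBET1). In contrast, 11 erythroid genes summed to 248306 and 258724 counts with DMSO and to 136731 and 138443 with dBET1. By the test described below, 10 of the 11 were lower after treatment, against 27.6% of all genes tested. The 6 lymphoid genes checked summed to 952 and 977 counts with DMSO and to 388 and 400 with dBET1, most of them from CD3D, with MS4A1 and CD8A at 0 in every library. The label NB4 is kept here, although the granule genes ELANE, CTSG, MPO, PRTN3 and AZU1 were absent or near 0, whereas LYZ and CD33 were not. The summed erythroid level fell together with the mitoribosome genes below, and its part in their change was not tested.

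Mitochondria keep a small genome of their own, and the mitoribosome translates its messages, all of which encode core subunits of the respiratory chain and the ATP synthase. The ribosomal RNAs come from mitochondrial DNA, whereas every ribosomal protein is encoded in the nucleus, made in the cytosol and imported. Some of the proteins have counterparts in bacterial ribosomes, and others were added during the evolution of mitochondria. The small subunit reads the message, and the large subunit joins amino acids and feeds the new chain through its exit tunnel toward the inner membrane.

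Several of these genes share a short stretch of DNA with a neighbour that is read from the opposite strand, so that both transcripts start back to back. The stretches between the annotated starts of 6 such pairs are printed below because the 2 genes of a pair moved together in some and apart in others. A start here is the outermost 5′ end of the gene in GENCODE, and single transcripts can start elsewhere. The stretches were read from hg38, 5′ to 3′ on the strand of the first gene named, in lower case. Capitals mark matches, on either strand, to 6 motifs that were searched. The core of the NRF1 motif was searched as GCATGCG, the E-box as CACGTG and the core of the YY1 motif as AAGATGG. The letters CCGGAAG stood for the ETS motif, and the last pair were the box motifs CCAAT and, as found before some start sites, TATAAA.
MRPS11 and MRPL46, chr15:88467391-88467452, plus strand: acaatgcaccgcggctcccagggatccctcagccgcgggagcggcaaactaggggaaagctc
MRPL36 and NDUFS6, chr5:1801367-1801406, minus strand: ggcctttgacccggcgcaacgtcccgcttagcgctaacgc
MRPS12 and SARS2, chr19:38930764-38930943, plus strand: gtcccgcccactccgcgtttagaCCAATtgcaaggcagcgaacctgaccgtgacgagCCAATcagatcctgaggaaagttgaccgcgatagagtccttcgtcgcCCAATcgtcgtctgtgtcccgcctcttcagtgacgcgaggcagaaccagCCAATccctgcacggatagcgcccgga
MRPL27 and EME1, chr17:50373208-50373219, minus strand: gatagcggaagt
MRPS18C and HELQ, chr4:83455856-83455931, plus strand: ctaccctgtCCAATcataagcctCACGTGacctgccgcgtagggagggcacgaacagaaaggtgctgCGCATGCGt
MRPL52 and SLC7A7, chr14:22829821-22829878, plus strand: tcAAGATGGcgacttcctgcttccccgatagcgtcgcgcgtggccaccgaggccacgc

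To see how the mitoribosome genes responded to dBET1, the treated libraries were compared with the DMSO libraries. Of the 78 genes, 71 were downregulated, none was upregulated, and 7 did not pass the test (edgeR's quasi-likelihood test, Benjamini-Hochberg adjusted p under 0.05 over all 17971 genes). Over all genes tested, 27.6% were lower and 28% were higher by the same rule. The median log2 fold change of the 78 genes was −0.97, against 0.048 over all genes tested, and 77 of the 78 values were negative. With an additional limit of 2-fold, 36 of the 78 genes (46.2%) were lower, against 8.54% of all genes tested, and none was higher, against 16.9%. Both dBET1 libraries lay below both DMSO libraries for 76 of the 78 genes, against 37.4% of all genes tested, and above them for 1 gene, MRPL10, against 41.9%. In bulk RNA, fewer cells of a type and less RNA per cell cannot be told apart.

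The mitoribosome genes also stood below other genes of their own abundance. Levels are given as CPM, the counts of a gene relative to the total of its library after TMM scaling, which sets a typical gene equal between libraries. Of 7306 genes tested within the abundance range of the 78, 44.2% were lower, 9.98% were lower past 2-fold, and the median log2 fold change was −0.20. Both dBET1 libraries lay below both DMSO libraries for 3976 of these 7306 genes. When the libraries were scaled by total counts alone, the median of all genes tested moved from 0.048 to 0.26 and that of the mitoribosome genes to −0.76, so the distance between the medians stayed at −1.02. Under that scaling 64 of the 78 genes were lower and 18 were lower past 2-fold, and 65.2% of all calls were higher, against 50.4% with TMM.

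Summed over the 78 genes, the level fell to 52.3% of that with DMSO. The sum was 7251 and 7976 CPM in the DMSO libraries and 4019 and 3942 CPM in the dBET1 libraries, that is 7614 ± 513 CPM (SD, n = 2) against 3980 ± 54.6 CPM (SD, n = 2). As a share of all counts, without TMM scaling, the genes took 0.682% and 0.732% with DMSO and 0.430% and 0.424% with dBET1. With 2 libraries against 2, the exact permutation test of a single sum cannot give a two-sided p below 0.333, so no p is given for these sums.

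**Figure D1:**
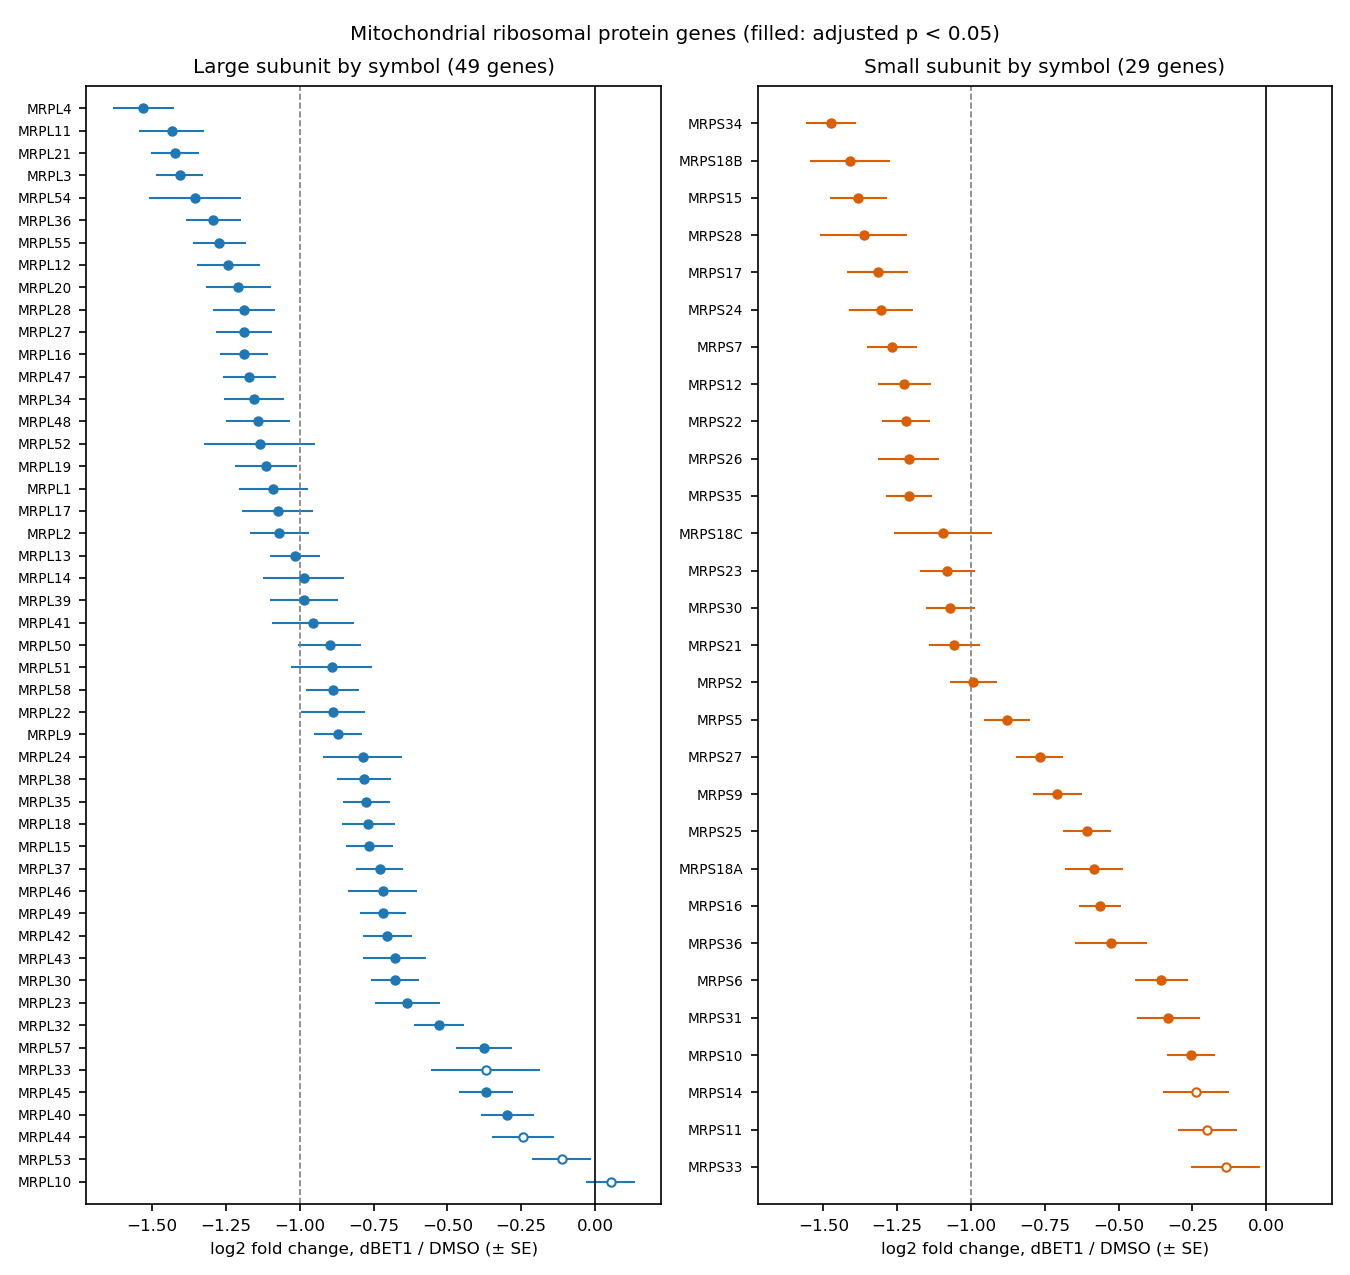
Log2 fold change of each mitochondrial ribosomal protein gene, dBET1 over DMSO, with its standard error as a bar, for the 49 MRPL genes (left) and the 29 MRPS genes (right). Filled points passed the test (71 genes), open points did not (7 genes), the dashed line marks 2-fold lower, and all points but that of MRPL10 lie left of 0.

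The summed levels of the large and the small subunit fell to 52.5% and 51.9% of those with DMSO. Of the 49 MRPL genes, 45 were lower (91.8%) and 21 were lower past 2-fold, with a median log2 fold change of −0.90. Of the 29 MRPS genes, 26 were lower (89.7%) and 15 were lower past 2-fold, with a median of −1.06. The summed MRPL level was 4412 and 4929 CPM with DMSO and 2482 and 2424 CPM with dBET1. The summed MRPS level was 2840 and 3047 CPM with DMSO and 1537 and 1518 CPM with dBET1. The ratio of the MRPL sum to the MRPS sum was 1.55 and 1.62 with DMSO and 1.61 and 1.60 with dBET1. On the log2 scale this ratio moved by 0.018, less than 0.043, the root of the summed squares of the 2 group SDs. This reading, however, depended on the genes and libraries included. The movement was −0.011 without DMSO replicate 1, 0.047 without DMSO replicate 2, and 0.17, beyond that spread, when genes whose exons overlap another gene were left out. The difference of the medians, 0.16, ranged from 0.0079 to 0.15 when a library was left out and was lowest without DMSO replicate 1.

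For 3 of the genes the symbol does not match the place of their protein. The products of MRPS18A and MRPS30 sit in the large subunit, and that of MRPS36 is a component of the 2-oxoglutarate dehydrogenase complex. With these moved, 47 of 51 large subunit genes were lower (median log2 fold change −0.90) and 23 of 26 small subunit genes were lower (median −1.07). MRPS30 fell by 1.07 on the log2 scale (SE 0.0824), from 115 and 108 CPM to 52.4 and 53.6 CPM. MRPS36 stood at 21.8 and 23.0 CPM with DMSO and at 15.7 and 15.4 CPM with dBET1. Its log2 fold change of −0.53 passed the test (edgeR adjusted p = 0.00754), but not without dBET1 replicate 1 (adjusted p = 0.0516) or without dBET1 replicate 2 (adjusted p = 0.0558).

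The 3 MRPS18 genes are paralogs that descend from one bacterial protein of the small subunit, and they differed in the size of their change. MRPS18B stood at 24.1 and 26.2 CPM with DMSO and at 9.03 and 9.89 CPM with dBET1, a log2 fold change of −1.41 (SE 0.135). MRPS18C stood at 44.3 and 55.1 CPM with DMSO and at 26.8 and 19.8 CPM with dBET1, a log2 fold change of −1.09 (SE 0.165). MRPS18A stood at 78.4 and 83.7 CPM with DMSO and at 50.4 and 57.7 CPM with dBET1, a log2 fold change of −0.58 (SE 0.0976). All 3 passed the test, and the differences between them were not tested. In each, both dBET1 libraries lay below both DMSO libraries, against 37.4% of all genes tested. MRPS18B lies in the HLA region of chromosome 6, where alternate copies of the sequence can share reads, and 50.9% of the exon bases of MRPS18A are shared with RSPH9 on the opposite strand.

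All 5 genes listed under the catalytic core of the large subunit were lower past 2-fold, with a median log2 fold change of −1.19. This label does not place each product at the site of peptide bond formation. MRPL4 (chr19:10251901-10260055, plus strand) stood at 228 and 277 CPM with DMSO and at 90.2 and 84.6 CPM with dBET1. This was the strongest fall among the 78 genes, with a log2 fold change of −1.53 (SE 0.105, edgeR adjusted p = 2.66e-05), a level 2.89-fold lower. MRPL3 stood at 181 and 176 CPM with DMSO and at 69.8 and 64.9 CPM with dBET1, a log2 fold change of −1.41 (SE 0.0793). Like MRPL4 it belongs to the proteins whose extensions reach into the rRNA core of the large subunit. MRPL16, MRPL27 and MRPL2 had log2 fold changes of −1.19, −1.19 and −1.07. The MRPL27 product carries a tail that in its bacterial counterpart reaches the catalytic site, and the gene stood at 74.8 and 82.6 CPM with DMSO and at 33.3 and 35.7 CPM with dBET1. In all 5 genes both dBET1 libraries lay below both DMSO libraries, as in 76 of the 78 genes and 37.4% of all genes tested.

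The stalk of the large subunit, which recruits the translation factors, was split. MRPL12, whose product forms the mobile part of the stalk and has also been described to bind the mitochondrial RNA polymerase, stood at 183 and 226 CPM with DMSO and at 86.0 and 87.1 CPM with dBET1, a log2 fold change of −1.24 (SE 0.107). MRPL11, at the base of the stalk, stood at 84.9 and 103 CPM with DMSO and at 34.4 and 35.1 CPM with dBET1, a log2 fold change of −1.43 (SE 0.11). MRPL10 (chr17:47823272-47831541, minus strand), whose product anchors MRPL12 to the ribosome, stood at 72.9 and 69.4 CPM with DMSO and at 74.7 and 72.9 CPM with dBET1. The MRPL10 groups touched at 72.9 CPM, and its log2 fold change of 0.053 (SE 0.0817, edgeR adjusted p = 0.611) did not pass the test. The sign of MRPL10 turned without DMSO replicate 2 (−0.013) and with no filter on low counts (−0.0021), and with total counts alone it was called higher (0.26, adjusted p = 0.0327). A gene that overlaps MRPL12 on the same strand shares 69.5% of its exon bases, so the counts of these 2 cannot be fully told apart.

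**Figure D2:**
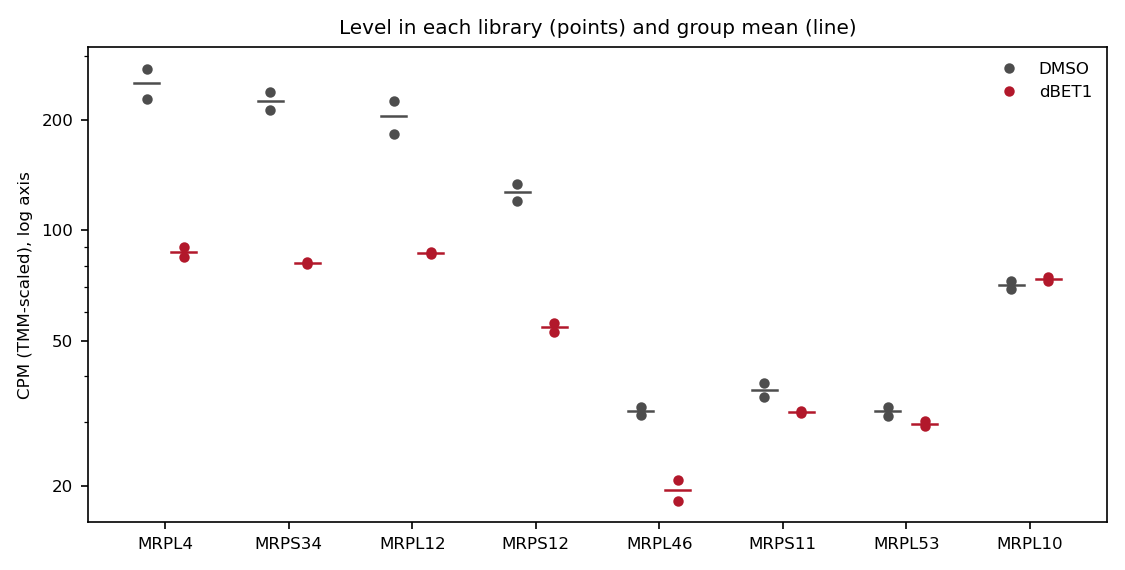
Level of 8 mitochondrial ribosomal protein genes in each library, as TMM-scaled CPM on a log axis, with grey points for DMSO, red points for dBET1 and a line at each group mean (n = 2). MRPL4, MRPS34, MRPL12 and MRPS12 separate widely, MRPL46 and MRPS11 share a stretch between their starts, and the groups of MRPL10 touch at 72.9 CPM.

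The other landmarks listed for the large subunit were the exit of the polypeptide tunnel, the central protuberance and the L1 stalk. All 6 genes listed for the tunnel exit were lower, with a median log2 fold change of −0.84. Their values ran from −1.17 (MRPL47) to −0.37 (MRPL45, the protein that faces the inner membrane). All 6 genes listed for the central protuberance were lower as well, with a median of −0.78, and MRPL48 (−1.14) was the one of these past 2-fold. Each gene was listed under at most 1 landmark, so other proteins of a region may be absent from its list. MRPL40, another protein of the protuberance, was the least changed of the 6, at 125 and 143 CPM with DMSO and 112 and 106 CPM with dBET1 (log2 fold change −0.30, edgeR adjusted p = 0.025). MRPL1, the protein of the L1 stalk at the side where tRNAs leave, fell by 1.09 on the log2 scale.

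In the small subunit, MRPS12 (chr19:38930944-38933168, plus strand), whose product lines the decoding centre, stood at 120 and 134 CPM with DMSO and at 53.0 and 55.8 CPM with dBET1, a log2 fold change of −1.23 (SE 0.0895). Of the 5 head proteins listed, MRPS24 (−1.30), MRPS7 (−1.27), MRPS9 (−0.71) and MRPS10 (−0.25) were lower, and MRPS14 (−0.24) did not pass the test. Of the 3 platform proteins listed, MRPS18C (−1.09) and MRPS21 (−1.06) were lower, and MRPS11 (−0.20) did not pass the test. So the listed genes of the head and of the platform each included genes lower past 2-fold beside one that did not pass. Both lists held only proteins with bacterial counterparts, and other proteins of these regions may be absent from them.

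The lowest values of the small subunit came from MRPS34, MRPS18B, MRPS15, MRPS28 and MRPS17. MRPS34 (chr16:1771890-1773150, minus strand), a protein added in mitochondria, stood at 213 and 239 CPM with DMSO and at 81.8 and 80.8 CPM with dBET1. Its log2 fold change was −1.48 (SE 0.0848, edgeR adjusted p = 1.44e-05), a level 2.78-fold lower. MRPS15, one of the early binders of the rRNA in bacteria, stood at 165 and 187 CPM with DMSO and at 71.1 and 63.8 CPM with dBET1. The log2 fold changes were −1.38 for MRPS15, −1.36 for MRPS28 and −1.32 for MRPS17. Both dBET1 libraries lay below both DMSO libraries for all 5, which were picked for their low values, against 37.4% of all genes tested. EME2, on the opposite strand, shares 31.2% of the exon bases of MRPS34, and a transcript annotated on the same strand shares 35.8% of those of MRPS28.

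Besides MRPL4, MRPL11 and MRPL3, the lowest values of the large subunit came from MRPL21 and MRPL54. MRPL21, a bacterial type protein of the subunit body, stood at 126 and 133 CPM with DMSO and at 48.4 and 48.2 CPM with dBET1, a log2 fold change of −1.42 (SE 0.0807). MRPL54, a protein added in mitochondria, stood at 32.6 and 42.2 CPM with DMSO and at 15.8 and 13.5 CPM with dBET1, a log2 fold change of −1.35 (SE 0.156). The other MRPL genes lower past 2-fold were MRPL36 (−1.29), MRPL55 (−1.27), MRPL20 (−1.21), MRPL28 (−1.19), MRPL34 (−1.16), MRPL52 (−1.14), MRPL19 (−1.12), MRPL17 (−1.07) and MRPL13 (−1.02). The other MRPS genes lower past 2-fold were MRPS22 (−1.22), MRPS26 (−1.21), MRPS35 (−1.21) and MRPS23 (−1.08). These last 4 encode proteins of the small subunit that have no bacterial counterpart.

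The genes were also grouped by ancestry, as the current names of the proteins give it, which count MRPS18A and MRPS18B with the proteins added in mitochondria although both derive from a bacterial one. In the large subunit, 28 of the 30 genes with a bacterial counterpart were lower and 18 of these were lower past 2-fold, with a median log2 fold change of −1.08. Of the 21 genes added in mitochondria, 19 were lower and 4 were lower past 2-fold, with a median of −0.73. The difference of the medians was −0.35, and it ranged from −0.39 to −0.28 when any one library was left out. In the small subunit, the 16 bacterial type genes had a median of −1.02 and the 10 added genes a median of −1.15, a difference of 0.12 in the other direction that ranged from 0.094 without DMSO replicate 2 to 0.18 without dBET1 replicate 2. With MRPS18A and MRPS18B moved to the bacterial type, a grouping chosen after seeing the data, the difference was −0.32 in the large subunit and 0.024 in the small. These are descriptions of the lists, with no test.

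Beside the 71 genes that fell, 7 genes did not pass the test: MRPL10, MRPL53, MRPL44, MRPL33, MRPS33, MRPS11 and MRPS14. MRPL53 stood at 31.2 and 33.0 CPM with DMSO and at 29.2 and 30.2 CPM with dBET1, a log2 fold change of −0.11 (SE 0.101). For MRPL53, 72.8% of the exon bases are shared with CCDC142 on the same strand. MRPL33 was the one gene whose groups overlapped, at 18.8 and 26.6 CPM with DMSO and 18.9 and 16.1 CPM with dBET1 (log2 fold change −0.37, SE 0.183). MRPL44, a protein with the fold of an RNase III, stood at 34.4 and 34.5 CPM with DMSO and at 27.5 and 30.7 CPM with dBET1, a log2 fold change of −0.24 (SE 0.105, edgeR adjusted p = 0.0826).

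The 3 small subunit genes that did not pass were close to their DMSO level. MRPS33 stood at 23.4 and 25.9 CPM with DMSO and at 22.0 and 22.8 CPM with dBET1, a log2 fold change of −0.14 (SE 0.117). MRPS11 stood at 35 and 38.4 CPM with DMSO and at 31.8 and 32.1 CPM with dBET1, a log2 fold change of −0.20 (SE 0.1). MRPS14 stood at 43.5 and 52.5 CPM with DMSO and at 39.9 and 41.4 CPM with dBET1, a log2 fold change of −0.24 (SE 0.112). In all 3 both dBET1 libraries were below both DMSO libraries, against 37.4% of all genes tested. The same held for 3976 of the 7306 genes in the abundance range of the mitoribosome genes. Without DMSO replicate 1, MRPS11 (−0.29, edgeR adjusted p = 0.0285) and MRPS14 (−0.39, adjusted p = 0.00248) were called lower. With total counts alone the sign turned for MRPL53 (0.097), MRPS11 (0.011) and MRPS33 (0.073), none of which passed the test there.

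A further 5 genes passed the test with small changes. These were MRPS10 (−0.25), MRPL40 (−0.30), MRPS31 (−0.33), MRPS6 (−0.36) and MRPL45 (−0.37), and MRPL57 (−0.38) came next. All 6 calls were lost when a dBET1 library was left out: those of MRPS10, MRPL40, MRPS31 and MRPS6 without either one, that of MRPL45 without dBET1 replicate 2 and that of MRPL57 without dBET1 replicate 1. In edgeR's quasi-likelihood test the adjusted p without dBET1 replicate 1 and without dBET1 replicate 2 was 0.196 and 0.213 for MRPS10, 0.105 and 0.183 for MRPL40, 0.18 and 0.148 for MRPS31, and 0.121 and 0.0834 for MRPS6. It was 0.139 for MRPL45 without dBET1 replicate 2 and 0.154 for MRPL57 without dBET1 replicate 1.

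Levels of different genes were compared per kilobase of the MANE Select transcript, the one reference transcript chosen for each gene. In the DMSO libraries the 78 genes ranged from 5.86 CPM per kb (MRPS33) to 243 ± 36.2 CPM per kb (MRPL20, SD, n = 2), with a median of 63.9. After MRPL20 came MRPS34 (227 ± 18.7), MRPL14 (219 ± 43.4), MRPL4 (207 ± 28.1) and MRPS24 (204 ± 27.2), neighbours that differed by less than their SDs. With dBET1 the order changed at the top. MRPL40 moved from rank 9 to rank 1 at 147 CPM per kb, MRPL14 was at 110, and MRPL20 was at 105. MRPL40 was among the least changed genes, whereas MRPL4, MRPS34 and MRPS24 went from ranks 4, 2 and 5 to ranks 9, 7 and 6.

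The more abundant mitoribosome genes were lowered somewhat more, as were the more abundant of all genes tested in the same ranges. When they were split into 3 sets of 26 by mean log2 CPM over the 4 libraries, the median log2 fold change was −0.84 in the lowest set, −0.99 in the middle set and −1.13 in the highest. Of the 7 genes that did not pass, 6 were in the lowest set and 1 in the middle set. All genes tested in the same abundance ranges had medians of −0.095, −0.26 and −0.38. The 78 genes share the same 4 libraries and are not independent. Across them the log2 fold change correlated with mean log2 CPM with Pearson's r of −0.25 and Spearman's rho of −0.25. With log2 CPM per kb r was −0.35 and rho −0.39, and with log2 mRNA length, which enters the per kb value, r was 0.22 and rho 0.27.

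By the outermost GENCODE starts, 17 of the 78 genes (21.8%) had a protein-coding neighbour on the opposite strand that started within 1000 bases. The share was 11.6% of 12509 coding genes tested. Of the 16 neighbours tested, 7 were lower, 5 were higher and 4 did not pass, with a median log2 fold change of −0.13. They include the mitoribosome genes MRPL46, which was lower, and MRPS11, which did not pass, each the neighbour of the other. Over the coding genes tested 34.2% were lower, and over all genes tested 27.6% were lower and 28% higher. The split is no result about these neighbours as a set. The 17 mitoribosome genes themselves had a median of −0.90, and the 61 without such a neighbour −0.99.

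In some pairs both genes fell. MRPL36 and NDUFS6, a subunit of respiratory complex I, start 40 bases apart in GENCODE, with log2 fold changes of −1.29 and −1.38. In RefSeq, the annotation used for promoters below, the bases before the MRPL36 start include chr5:1799896-1800015, inside the GENCODE gene. The RefSeq start of MRPL36 is thus farther from NDUFS6. NDUFS6 stood at 103 and 138 CPM with DMSO and at 50.7 and 42.1 CPM with dBET1. MRPS12 and SARS2, the mitochondrial seryl-tRNA synthetase, start 180 bases apart across a stretch with 4 CCAAT boxes, with log2 fold changes of −1.23 and −1.25. NDUFS6 and SARS2 also encode proteins of the mitochondrion, and so does NDUFB5, the complex I subunit beside MRPL47, which did not pass the test (0.012). MRPL18 and TCP1, a subunit of the cytosolic chaperonin, start 108 bases apart, with −0.77 and −1.10. Both genes were also lower in the pairs MRPL21 and IGHMBP2 (−1.42 and −0.53), MRPL49 and FAU (−0.72 and −0.64) and MRPL57 and SKA3 (−0.38 and −0.57).

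In others the partners moved in opposite directions. MRPL27 and EME1, part of a structure-specific DNA endonuclease, have 12 bases between their starts. EME1 stood at 13.8 and 14.9 CPM with DMSO and at 42.2 and 38.4 CPM with dBET1, a log2 fold change of 1.49 (SE 0.115), beside −1.19 for MRPL27. MRPS18C and HELQ, a DNA helicase, start 76 bases apart, with log2 fold changes of −1.09 and 0.80 (SE 0.21). HELQ stood at 10.2 and 7.22 CPM with DMSO and at 16.9 and 13.5 CPM with dBET1, so its groups did not overlap, and ABRAXAS1 on the opposite strand shares 40.2% of the exon bases of MRPS18C. MRPL50 and ZNF189 (−0.90 and 0.65) and MRPL54 and APBA3 (−1.35 and 0.43) also moved apart. Beside MRPL10, LRRC46 was higher (1.03, SE 0.275), at 1.35 and 1.53 CPM with DMSO and 2.87 and 3.01 CPM with dBET1.

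One pair joins 2 mitoribosome genes, MRPL46 and MRPS11, with 62 bases between their starts on chromosome 15. MRPL46, a protein of the central protuberance, stood at 31.4 and 32.9 CPM with DMSO and at 20.8 and 18.3 CPM with dBET1, a log2 fold change of −0.72 (SE 0.117, edgeR adjusted p = 0.00146). MRPS11, a platform protein, had the −0.20 given above. The difference between these 2 genes was not tested. The printed stretch between them holds no match to any of the 6 motifs. Near MRPL52 and MRPL30 the partners SLC7A7 (−0.055, SE 0.43) and MITD1 (0.17, SE 0.14) did not pass the test. The mitoribosome gene of each pair was lower. SLC7A7 was near the floor, at 0.80 and 0.57 CPM with DMSO and 0.57 and 0.75 CPM with dBET1, so its change is poorly measured.

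**Figure D3:**
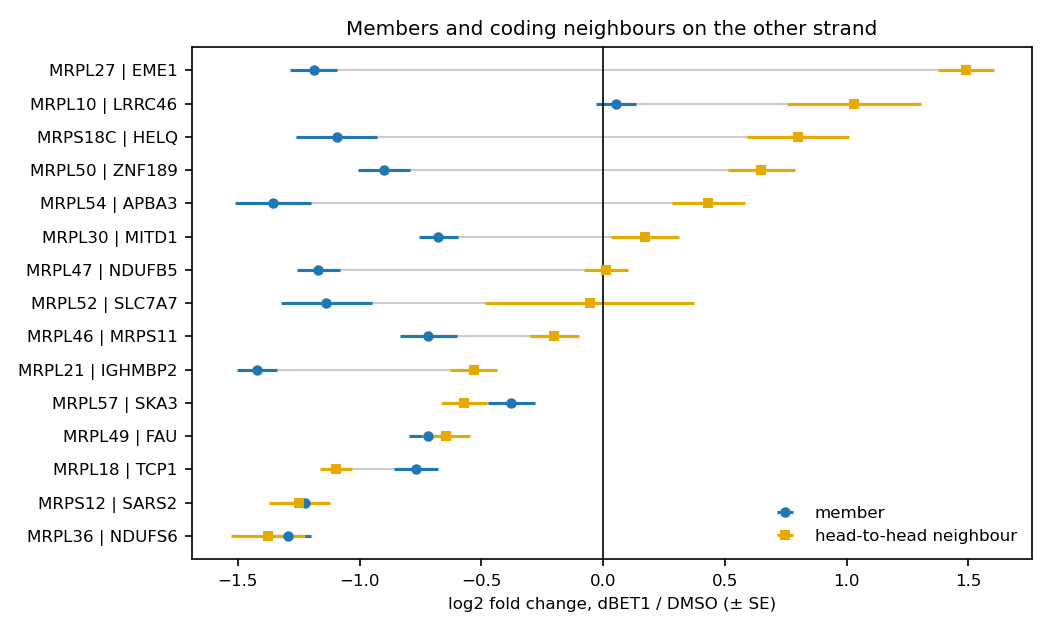
Log2 fold change, dBET1 over DMSO, of mitochondrial ribosomal protein genes (blue circles) and of their coding neighbours (yellow squares), with standard errors as bars. Neighbours lie on the opposite strand and start within 1000 bases by the outermost GENCODE starts. The pair at the top, MRPL27 and EME1, lies farthest apart at −1.19 and 1.49, and MRPS12 with SARS2 and MRPL36 with NDUFS6 lie together at the bottom.

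Promoter sequences of 69 of the 78 genes were matched by symbol in RefSeq (GRCh38.p14), as windows from 250 bases before to 50 bases after the start. The letters CCGGAAG of the ETS motif, bound by factors such as GABPA, were found on either strand in 29 of the 69 windows (42%), against 14.4% of 15345 windows of coding genes. The letters AAGATGG of the YY1 core were found in 23 of 69 (33.3%), against 6.43%. Many of these matches lay on the strand of the gene in the 50 bases after the start, inside the transcript, and others lay before it. The NRF1 core GCATGCG was found in 7 (10.1%, against 5.13%), CCAAT in 20 (29%, against 36.6%), CACGTG in 6 (8.7%, against 8.89%) and TATAAA in 2 (2.9%, against 9.63%). The ETS letters end with the AAG that opens the YY1 core, and the NRF1 core overlaps its own reverse complement, so matches can overlap. A match is a run of letters and not a measured binding site.

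The genes with these letters and those without them were both lowered. The median log2 fold change was −1.08 with the ETS letters and −0.93 without, −0.89 with the YY1 letters and −0.99 without, and −1.09 with the NRF1 letters and −0.93 without. All 23 genes with the YY1 letters and 26 of the 29 with the ETS letters were lower. The stretch before MRPL20, the gene of the highest level per kb, shows 2 ETS matches in capitals, and it is printed as an example from RefSeq, 5′ to 3′ on the strand of the gene.
MRPL20, chr1:1407294-1407413, minus strand: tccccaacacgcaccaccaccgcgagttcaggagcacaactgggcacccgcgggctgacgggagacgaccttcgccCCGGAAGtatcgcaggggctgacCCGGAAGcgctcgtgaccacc
MRPL20 stood at 152 and 188 CPM with DMSO and at 75.2 and 72.0 CPM with dBET1, a log2 fold change of −1.21 (SE 0.109).

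Of the factors known to act on promoters of mitochondrial protein genes, 7 of 8 listed could be tested and 5 were lower. These 5 were 71.4% of those tested, against 27.6% of all genes tested. YY1 stood at 205 and 196 CPM with DMSO and at 129 and 122 CPM with dBET1, a log2 fold change of −0.68 (SE 0.0753). NRF1, the nuclear respiratory factor, stood at 30.4 and 32.5 CPM with DMSO and at 23.3 and 24.1 CPM with dBET1, a log2 fold change of −0.41 (SE 0.107). The coactivators PPARGC1B (−1.01) and PPRC1 (−0.98) and the nuclear receptor ESRRA (−0.67) were lower as well. GABPA (−0.17) and GABPB1 (0.031), the 2 chains of the ETS factor GABP, did not pass the test, and the coactivator PPARGC1A was too low to be tested.

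Mitoribosome proteins whose genes carry other names fell with the rest. All 5 listed were lower, against 27.6% of all genes tested: GADD45GIP1 (−1.49), AURKAIP1 (−1.27), PTCD3 (−1.21), CHCHD1 (−0.72) and DAP3 (−0.40). GADD45GIP1, a protein of the large subunit, stood at 182 and 227 CPM with DMSO and at 73.0 and 72.9 CPM with dBET1. DAP3, a GTP-binding protein of the small subunit, stood at 183 and 189 CPM with DMSO and at 142 and 138 CPM with dBET1. For GADD45GIP1 and DAP3 both dBET1 libraries lay below both DMSO libraries, against 37.4% of all genes tested.

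Of 29 assembly factors of the mitoribosome, 22 were lower (75.9%), 2 were higher and 5 did not pass. Over all genes tested 27.6% were lower, and in the abundance range of the 78 mitoribosome genes 44.2%. The median log2 fold change of the assembly factors was −0.61. The lowest were C1QBP (−1.69), NDUFAB1 (−1.56), the mitochondrial acyl carrier protein, and MRM1 (−1.24), which methylates the large rRNA. C1QBP stood at 490 and 499 CPM with DMSO and at 157 and 150 CPM with dBET1. The 2 that were higher are GTPases. MTG1 stood at 22.0 and 23.3 CPM with DMSO and at 31.9 and 36.9 CPM with dBET1 (0.60, SE 0.117), and NOA1 at 35.1 and 38.4 CPM with DMSO and at 45.4 and 48.8 CPM with dBET1 (0.36, SE 0.098).

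Of 16 factors of mitochondrial translation, 11 were lower (68.8%, against 27.6% of all genes tested), none was higher and 5 did not pass. Their median log2 fold change was −0.50. SLIRP, which binds mitochondrial messages, had −1.95, TUFM, the mitochondrial elongation factor Tu, −1.50, and GFM1, an elongation factor G, −1.14. TUFM stood at 430 and 465 CPM with DMSO and at 157 and 160 CPM with dBET1. The highest were MTFMT, which formylates the initiator tRNA, at 0.26, and MTIF3, an initiation factor, at 0.15, neither of which passed the test. Of 18 genes that copy, transcribe and process mitochondrial DNA and its RNA, 15 were lower and 1 was higher, with a median of −0.99. The share lower was 83.3%, against 27.6% of all genes tested. The lowest were HSD17B10 (−1.65), SSBP1 (−1.61), the single-stranded DNA-binding protein, and SUPV3L1 (−1.24), an RNA helicase, and the one that was higher was POLG (0.36, SE 0.0773), the catalytic subunit of the DNA polymerase.

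With TMM scaling, the 2 rRNAs of the mitoribosome moved in opposite directions. MT-RNR1, the rRNA of the small subunit, stood at 494 and 411 CPM with DMSO and at 365 and 370 CPM with dBET1 (log2 fold change −0.30, SE 0.0946, edgeR adjusted p = 0.0284). MT-RNR2, the rRNA of the large subunit, stood at 2590 and 2304 CPM with DMSO and at 8916 and 8506 CPM with dBET1 (1.83, SE 0.0796, edgeR adjusted p = 7.28e-06). On this scale the groups overlapped in neither. MT-RNR1 held 16116 and 11547 counts with DMSO, of library totals of 34685645 and 30631745. It held 10966 and 11299 counts with dBET1, of totals of 28019956 and 28349721. As a share of these totals, without TMM scaling, the MT-RNR1 groups overlapped, so its fall depended on the scaling. Both are transcribed from mitochondrial DNA, and near-identical copies of that DNA in the nuclear genome can share reads with them. The labels name a TruSeq RNA kit, which in its standard form selects polyadenylated RNA, so these are levels of the rRNA that remained in the libraries.

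For comparison, the genes of the cytosolic ribosome, which makes all other proteins of the cell, were counted in the same way. Of 86 such genes, 84 were tested, 17 were lower (20.2%, against 27.6% of all genes tested), 9 were higher and 58 did not pass, with a median log2 fold change of −0.068. Of the 84, 2 were lower past 2-fold, against 36 of the 78 mitoribosome genes. The lists share the 4 libraries and the scaling, and no test of one list against the other was made.

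**Figure D4:**
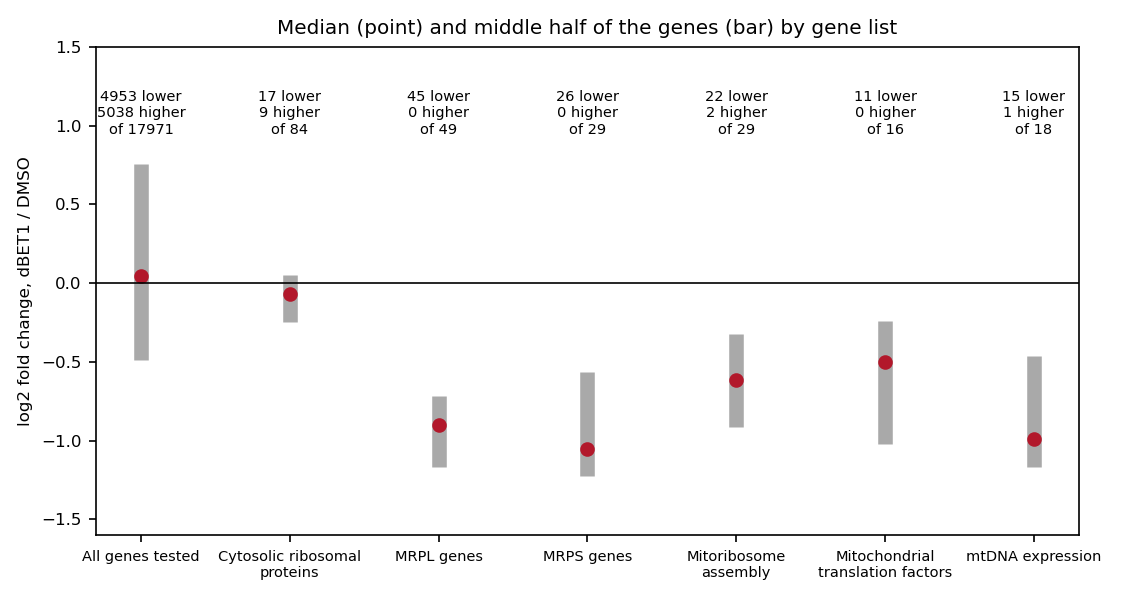
Median log2 fold change (point) and the range from the lower to the upper quartile of the genes (grey bar), dBET1 over DMSO, for all genes tested and 6 gene lists, with the numbers of genes lower and higher by the test above each. The MRPL and MRPS medians lie at −0.90 and −1.06, those of all genes and of the cytosolic ribosomal proteins near 0.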

How the data were processed

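RNA of 4 libraries, 2 with dBET1 and 2 with DMSO, was sequenced as paired reads. Per the paper's methods, the authors aligned them to hg38 with HISAT2 (version 2.2.0, also in the submitters' processing notes) and used StringTie for assembly and abundance. The deposited values are whole-number counts of each gene, which were not normalized. How abundances became counts, and with which strand setting, is not given in the sources used here, and the TruSeq kit of the labels does not mark strand in its standard form, so overlapping genes can share counts: 41 of the 78 genes share exon bases with another gene.

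GENCODE 44 named 56105 of 64252 identifiers, and the rest held 2.57% of the counts. The column names give NC for the control, taken as the DMSO samples, the only control. After filterByExpr and TMM, edgeR (version 4.0.16) fitted group alone with its quasi-likelihood test, Benjamini-Hochberg adjusted over 17971 genes, a call being adjusted p under 0.05. The code was tested on simulated data first. Named genes were the 5 lowest and 5 highest of each subunit, those past 2-fold, the MRPS18 paralogs, MRPS30, MRPS36 and those of the stalk, decoding centre and catalytic core. Others, such as the members of other structural regions, MRPL14 and the neighbours, were chosen after their values were seen. Members and lists were chosen with earlier results of these data known. Alternatives were DESeq2 (version 1.42.0), other scalings and filters, halved counts, a replicate block, subunits by structure, overlapping genes left out, and each library left out.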

Additional observations from a re-analysis of the deposited data

How the results depend on the processing

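Of the 78 genes, 64 were called lower under every alternative, and so were all 36 that were lower past 2-fold. The number called lower ranged from 64 to 74 and the distance of their median from that of all genes from −1.09 to −0.90. Leaving out the genes with overlapping exons left fewer genes: 24 MRPL genes lower (10 past 2-fold), 11 MRPS genes lower (8 past 2-fold), and a change of 0.17 in the log2 ratio of the MRPL sum to the MRPS sum, whose cause was not tested. With total counts alone, 1 MRPL gene was higher (MRPL10), 8 were lower past 2-fold, and the medians were −0.69 (MRPL) and −0.85 (MRPS), MRPL53, MRPS11 and MRPS33 turning to 0.097, 0.011 and 0.073. MRPL10 turned to −0.0021 with no filter, and ranged from −0.013 (without DMSO replicate 2) to 0.061 when a library was left out. Leaving out a library gave medians of −1.06 to −0.83 (MRPL) and −1.06 to −0.98 (MRPS), a difference of 0.0079 to 0.15, and a change of the log2 ratio of the sums of −0.011 to 0.047, lowest in both without DMSO replicate 1; a group left with 1 library is assumed to vary like the other.

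Replicate numbers share only a number: the replicate differences of the groups correlated at −0.0075 over genes. With the replicate block, 71 genes were lower and 36 lower past 2-fold, and no call of a named gene changed. Of 528 values for the 48 named genes, 502 kept direction and side of the threshold, 18 lost their call, 3 gained one and 5 changed sign. With 2 libraries a group, small changes could not be told from replicate spread.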
